A study of Arabidopsis thaliana with 4 samples.

Results

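The broad open regions described here are stretches of accessible chromatin at least 600 bp wide in flowers of Arabidopsis thaliana. The assay was ATAC-seq, which uses the Tn5 transposase to cut and tag DNA that nucleosomes leave bare. The called intervals of 4 libraries were merged wherever they shared at least 1 bp. This gave 64218 regions, of which 19546 held an interval from every library, and 403 of these had a merged width of 600 bp or more. The 403 regions made up 2.06% of the regions called in all 4 libraries and 5.27% of their bases. A further 8 regions of that width were called in fewer than 4 libraries and are not members. The members were selected on measured width and on being called in every library, so their merged widths are given as a description, with no test. Covered length per library, compared between genotypes below, comes from the same intervals, so those p-values are not independent of the selection.

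The libraries came from 2 genotypes with 2 libraries each, wild type (WT) and mbd9-3, a T-DNA insertion mutant of MBD9. Flowers came from soil-grown plants of the Columbia-0 ecotype, 4 weeks old and kept in long days, and both genotypes were free of any transgene named in the labels. Values of the libraries are given below in the order WT replicate 1, WT replicate 2, mbd9-3 replicate 1 and mbd9-3 replicate 2 unless another order is stated. Nothing in the labels says whether replicates came from separate batches of plants, so p-values measure the spread between these libraries, which may be technical.

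Intervals were called in each library separately, and the lists held 44004, 43962, 45208 and 37609 summit rows. The lowest background in a list, used as a measure of relative depth, was 1.75, 2.15, 1.72 and 1.79 tags, so WT replicate 2 stood highest. Over all 19546 regions the median covered length was 177, 208, 175 and 189 bp, again with WT replicate 2 at the top. Depth and covered length moved together across the libraries, and the part of depth in the results below was not tested. Of 9 floral organ identity genes, 7 were the nearest gene of a region called in all 4 libraries, and AP3 and PI were not. The same held for 14046 of all 27444 protein-coding genes and for 9 of 9 circadian clock genes. This count therefore does not check the tissue. No region called in all 4 had MBD9 as its nearest gene, and peak lists do not show the insertion, so the genotype labels were not checked here.

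Chromatin is opened where nucleosomes are removed, shifted or made unstable, most often just upstream of the transcription start site (TSS) of active genes. MBD9, of the methyl-CpG-binding domain family, interacts with the chromatin remodeller SWR1, which replaces H2A by its variant H2A.Z in nucleosomes near start sites. A wide region can hold several binding sites for transcription factors, a pair of divergent promoters, or a stretch of gene body on which nucleosomes are sparse.

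The sequences around the strongest summit of the widest regions are shown first, because these letters lie under the highest enrichment of the longest open stretches. Each run is at most 300 bases of the plus strand, from the 5′ to the 3′ end, cut so that it holds no annotated untranslated base. Capitals mark the motifs searched, on either strand: the G-box CACGTG, the repeat written GAGAGA, the telo-box AAACCCTA, the TCP site TGGGCC, the TATA box (TATAAA), the evening element AAATATCT, the LEAFY core CCANTG, the auxin response factor (ARF) site TGTCTC, the W-box core TTGACC and the MADS CArG box. Sequences are from RefSeq TAIR10.1. Regions are named after the gene with the nearest TSS. The window of AT3G43670 was chr3:15567575-15567874 in the coding part of that gene. That of AT5G35640 was chr5:13833543-13833712, just past the end of GS2. The window of AT1G56150 was chr1:21017183-21017310, upstream of the gene, and does not reach the summit, which lies in the 5′ UTR. For AT5G10990 it was chr5:3478424-3478671, between that gene and AT5G11000. For NCED6 it was chr3:8762695-8762994, in the coding exon. For AT3G05230 it was chr3:1490540-1490839, in a coding exon of the neighbouring gene AT3G05220.
AT3G43670: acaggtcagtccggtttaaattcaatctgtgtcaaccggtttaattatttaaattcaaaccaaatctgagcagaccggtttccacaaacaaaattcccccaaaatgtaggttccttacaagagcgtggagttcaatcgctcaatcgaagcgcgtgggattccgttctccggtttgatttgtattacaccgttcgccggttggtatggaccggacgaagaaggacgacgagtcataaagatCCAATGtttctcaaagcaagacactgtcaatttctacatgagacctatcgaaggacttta
AT5G35640: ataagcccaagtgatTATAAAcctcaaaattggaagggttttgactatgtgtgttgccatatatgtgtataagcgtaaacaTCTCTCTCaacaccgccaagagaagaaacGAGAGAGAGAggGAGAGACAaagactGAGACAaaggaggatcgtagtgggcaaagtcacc
AT1G56150: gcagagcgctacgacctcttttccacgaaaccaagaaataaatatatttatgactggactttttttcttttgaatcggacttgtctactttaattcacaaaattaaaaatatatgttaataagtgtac
AT5G10990: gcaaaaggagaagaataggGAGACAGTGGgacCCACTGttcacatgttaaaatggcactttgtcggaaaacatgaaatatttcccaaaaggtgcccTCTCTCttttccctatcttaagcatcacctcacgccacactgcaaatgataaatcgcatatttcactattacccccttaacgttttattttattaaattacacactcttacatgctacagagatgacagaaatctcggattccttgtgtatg
NCED6: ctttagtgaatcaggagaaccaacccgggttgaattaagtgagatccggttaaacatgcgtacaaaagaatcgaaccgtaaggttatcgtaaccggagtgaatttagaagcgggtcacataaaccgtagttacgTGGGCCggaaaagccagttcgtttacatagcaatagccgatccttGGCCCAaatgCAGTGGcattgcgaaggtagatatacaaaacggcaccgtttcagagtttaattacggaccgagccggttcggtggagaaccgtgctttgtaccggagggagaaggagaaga
AT3G05230: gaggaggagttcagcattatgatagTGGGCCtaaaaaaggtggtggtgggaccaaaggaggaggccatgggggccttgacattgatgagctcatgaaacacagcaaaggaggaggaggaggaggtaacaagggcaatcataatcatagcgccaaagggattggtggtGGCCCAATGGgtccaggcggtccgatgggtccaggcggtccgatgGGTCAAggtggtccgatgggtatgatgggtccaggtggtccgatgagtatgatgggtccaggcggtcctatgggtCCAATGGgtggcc
No untranslated-free stretch was left at XTH9, whose summit lies in the 5′ UTR. The NCED6 window held the TCP site on both strands and a LEAFY core. The AT5G35640 window held a TATA box, a run of overlapping GAGAGA matches and the ARF site. The AT1G56150 window held none of the motifs.

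Few broad regions were an unbroken interval of that width in every library, and many reached 600 bp only once intervals were merged. Merged widths ran from 600 to 1210 bp with a median of 672 bp, against a median of 253 bp for all regions called in all 4 libraries. Only 164 members reached 700 bp, 70 reached 800 bp and 13 reached 1000 bp. A single interval of 600 bp or more was listed at 79, 135, 78 and 103 of the 403 members in the 4 libraries. Such an interval was present in all 4 libraries at 20 members and in none of them at 167. The median share of a member's length that was covered in every library was 49.7%, and 10 members had no base covered in all 4. WT replicate 2, the library with the highest background, had the most members with a single long interval.

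**Figure D1:**
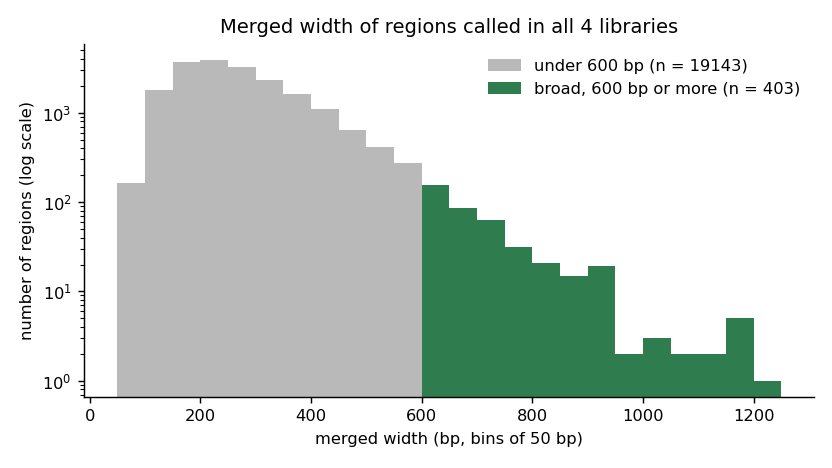
The plot shows the number of regions called in all 4 libraries (vertical axis, log scale) by merged width in bp (horizontal axis, bins of 50 bp), with the 403 broad regions in green and the 19143 narrower ones in grey. Above the median of 253 bp the counts fall with width, and the members form the right-hand tail, which ends at 1210 bp.

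At the 600 bp minimum the regions passed from one side to the other without a break in their values. The 5 members just inside were 600 to 602 bp wide and lay nearest to AT1G24265, AT5G24155, MYB48, AT5G24210 and BBX8. The 5 regions just outside were each 599 bp wide and lay nearest to AT1G23710, MYB94, BCAT3, RbcX1 and HVA22D. Covered length was 532, 596, 448 and 526 bp at BBX8, just inside, and 512, 580, 527 and 570 bp at AT1G23710, just outside. AT5G24210 is a member only because mbd9-3 replicate 1 listed 594 bp there, while the other libraries listed 146, 78 and 92 bp.

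The widest region, 1210 bp at chr3:15567055-15568264, began at the start site of AT3G43670, a copper amine oxidase gene, and ran 1198 bp into it. Covered length was 674, 1143, 832 and 801 bp, with 4, 5, 6 and 4 summits. WT replicate 2 was the longest there, and the genotypes overlapped.

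Among the 10 widest regions, the one at XTH9 had the most bases covered in every library. XTH9 encodes a xyloglucan endotransglucosylase/hydrolase, an enzyme that cuts and rejoins xyloglucan in the cell wall. The region spanned 1191 bp (chr4:1414783-1415973), from 120 bp inside the preceding gene across the intergenic stretch to 357 bp into XTH9. The libraries covered 949, 1189, 1019 and 1053 bp, had 6, 6, 6 and 7 summits, and 879 bp were covered in all 4. The members also included XTH4 (1056 bp, wholly inside the gene) and EXGT-A3 (804 bp, intergenic), so 3 of the 19 genes of this enzyme family that were nearest to any region had a broad one. The family was picked after its values were seen, and no test was made.

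Several of the widest regions lay in or past genes other than the one with the nearest start site. The region assigned to AT5G35640 (1177 bp, chr5:13832599-13833775) overlapped GS2, the plastid glutamine synthetase, over 944 bp at its 3′ end, with its strongest summit just beyond the gene. The region assigned to AT3G05230 (1101 bp) lay wholly within AT3G05220, a gene of a heavy metal transport family. Among all members, 275 overlapped the gene with the nearest start site, 77 overlapped no protein-coding gene, and 45 had their strongest summit inside another gene. In all, 84 members lay wholly inside a single gene.

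NCED6 carried a region of 1135 bp wholly inside the gene (chr3:8761980-8763114), which covered 60.2% of its length. The enzyme makes a precursor of the hormone abscisic acid. Covered length was 830, 932, 926 and 842 bp, and the highest fold enrichment in the region was 16.0, 12.4, 11.7 and 11.0. The lengths of the genotypes overlapped. A further 2 coding members of the widest 10 were AT2G39710, an aspartyl protease gene (1051 bp, covering 829, 796, 733 and 789 bp), and XTH4 (covering 563, 1002, 533 and 866 bp). Both stood lower than NCED6 in enrichment, with mean rank percentiles of 51.5 and 70.1 against 98.0, where the percentile is the rank of the region's highest fold among all rows of its list.

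AT1G56150 and AT5G10990, of the SAUR-like auxin-responsive family whose small genes respond rapidly to auxin, were each nearest to a region of 1169 bp. At AT1G56150 the libraries covered 68, 926, 531 and 921 bp. WT replicate 1 listed only 1 interval at the start site, so the WT replicates lay on either side of both mbd9-3 libraries. At AT5G10990 the region lay past the gene (chr5:3477745-3478913) and the libraries covered 925, 1038, 700 and 528 bp.

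**Figure D2:**
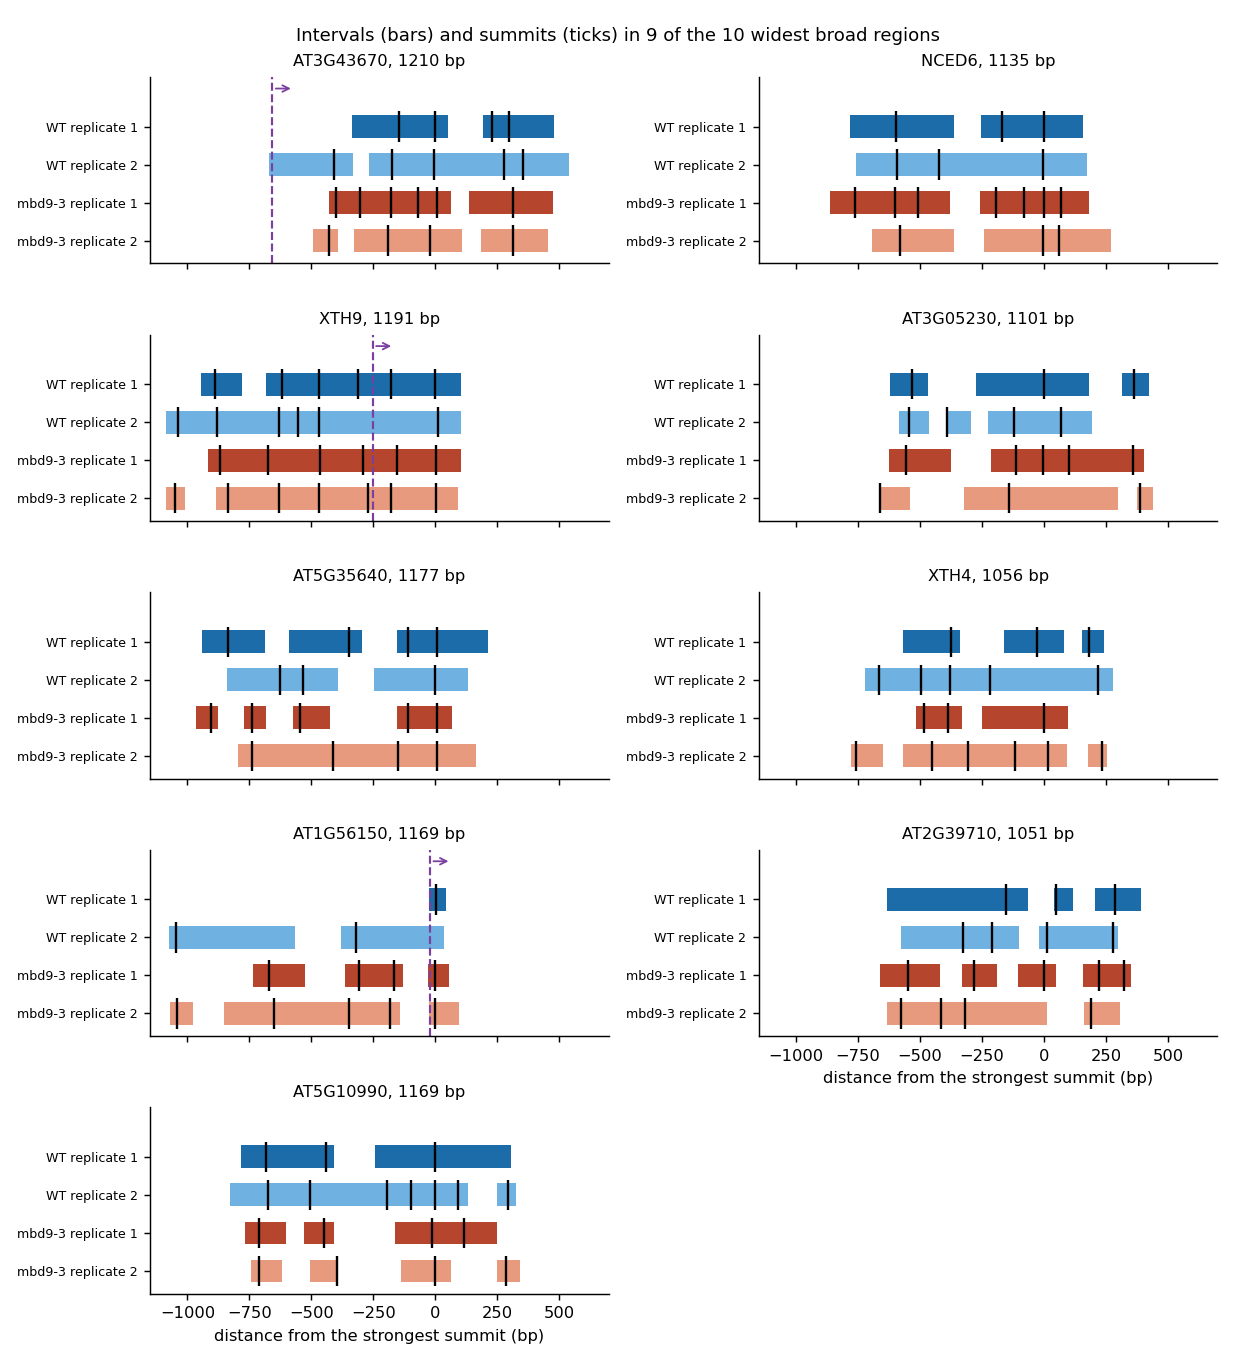
Each panel shows 1 of 9 of the 10 widest regions, with the called intervals of each library as bars and their summits as black ticks, against the distance in bp from the strongest summit. Dashed lines mark start sites of protein-coding genes inside the region and arrows their direction. XTH9 is covered over at least 949 of its 1191 bp in every library, whereas AT1G56150 has a single interval of 68 bp in WT replicate 1.

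Broad regions held several summits in every library. The mean number per member was 2.76, 3.09, 2.84 and 2.89, against 1.28, 1.39, 1.28 and 1.32 over all regions called in all 4 libraries. In every library the median member had 3 summits, and 314 members (77.9%) had at least 2 in all 4 libraries, as did 8.95% of all regions. Wider regions have more room for summits, so this difference follows the selection on width and was not tested. Counting only summits at least 150 bp apart, and keeping the stronger, left 2.18, 2.36, 2.29 and 2.21 per member.

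Members with the most summits outside the widest 10 were mostly at promoters. NF-YB2, a subunit of the nuclear factor Y transcription factor, had 5, 6, 5 and 5 summits in a region of 791 bp that ended 8 bp inside the gene. It was a single interval in each library, covering 713, 791, 750 and 738 bp. MTM1, which encodes a manganese carrier of mitochondria, had 6, 5, 5 and 5 summits in 844 bp. GBF3, a bZIP protein that binds the G-box, was nearest to a region of 863 bp with 5 summits in each of the 4 libraries. AT1G51400, a photosystem II subunit gene, had 6, 4, 6 and 5 summits over 901 bp, and AT5G26220, a ChaC-like gene, 4, 6, 5 and 5 over 1040 bp.

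Neighbouring summits of the same library lay 181, 164, 184 and 167 bp apart at the median, over 709, 843, 743 and 762 pairs. Within a single interval the median was 143, 144, 145 and 135 bp, and the closest pair was 45 bp apart. Between summits in different intervals it was 285, 295, 292 and 292 bp. The spread was wide: the middle 50% of neighbours in WT replicate 1 ran from 119 to 254 bp, and 30.5% of its pairs were 140 to 220 bp apart. The medians of the genotypes overlapped.

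**Figure D3:**
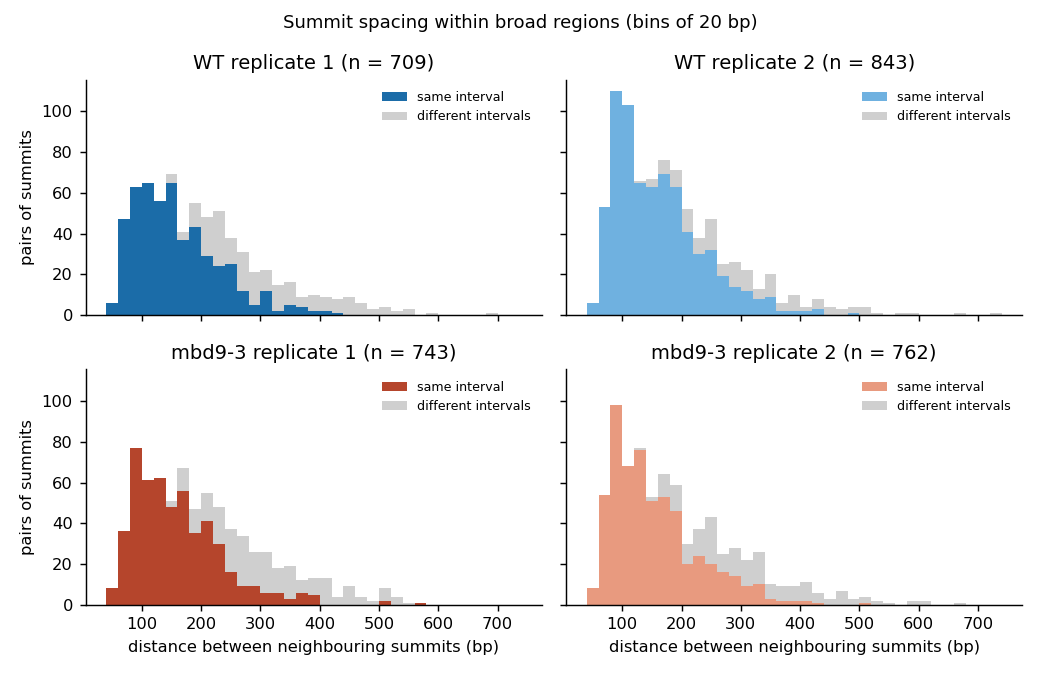
Each panel counts pairs of neighbouring summits in broad regions of 1 library by the distance between them (bins of 20 bp), with pairs in the same interval in colour and pairs in different intervals in grey. Short distances are nearly all within an interval, and the 4 panels have the same shape, with medians of 164 to 184 bp.

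Summit positions were also compared between libraries. A summit of a broad region had a summit of another library within 50 bp in 61.7% to 69.3% of cases for libraries of the same genotype and in 61.2% to 68.2% for libraries of different genotypes. In regions under 600 bp these ranges were 75.5% to 81.7% and 74.9% to 81.3%, above those of the broad regions for every pair of libraries. Narrower regions leave less room for summits to lie apart, and the part of the selection on width in this difference was not tested. Same-genotype and cross-genotype pairs overlapped in both sets. The same number of summits was listed in all 4 libraries at only 26 members.

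Promoters held the largest group of members, and coding exons were more frequent among them than among other regions. The strongest summit lay in a promoter (up to 1000 bp upstream of a TSS) at 193 members, 47.9% (95% Wilson interval 43.1% to 52.8%), against 45.0% of all regions called in all 4 libraries. It lay in a coding exon at 63 members, 15.6% (12.4% to 19.5%), against 7.81%. It lay in intergenic DNA at 21 members, 5.21% (3.43% to 7.84%), against 14.0%. The 5′ UTR held 55 members (13.6%, against 17.0%), downstream flanks 31, 3′ UTRs 17, non-coding genes and pseudogenes 17, and introns 6. Regions share libraries, so these intervals cover counting error only. By bases, 19.4% of the members' length was coding exon, against 10.1% in all regions and 24.4% in the genome.

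**Figure D4:**
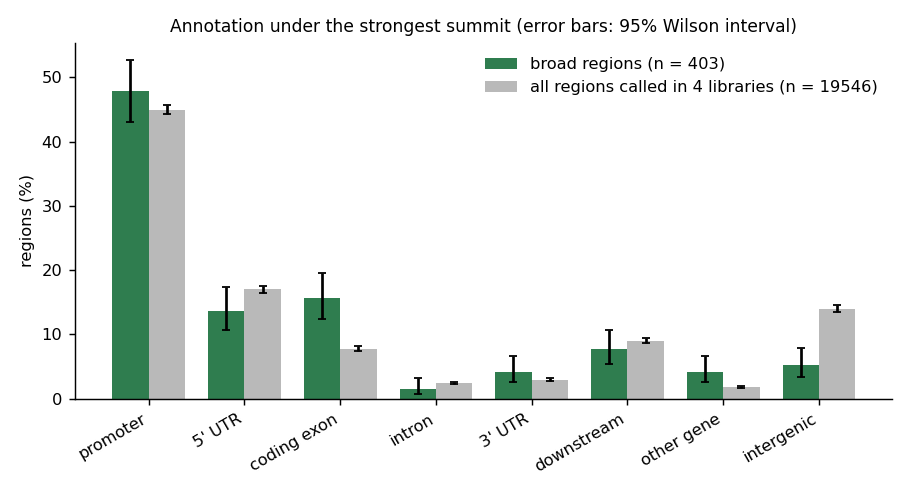
Bars give the percent of regions whose strongest summit falls in each annotation class, for the 403 broad regions (green) and all 19546 regions called in all 4 libraries (grey), with 95% Wilson intervals. Coding exons stand at 15.6% among the broad regions and 7.81% among all, and intergenic DNA at 5.21% and 14.0%.

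Many broad regions in coding exons lay in genes with a single exon. Of the 63 coding members, 26 were in such a gene (41.3%, interval 29.96% to 53.6%), against 24.97% of the 1526 coding regions overall. Base composition moved with this class: the 300 bp window around the strongest summit had a median GC content of 46.0% at coding members and 38.0% at promoter members. Coding members were also weaker, with a median mean rank percentile of 79.4 against 85.1 at promoter members. A mean percentile under 50 was found at 10 of the 63 coding members and at 5 of the 193 promoter members. In all regions called in all 4 libraries the medians were 57.5 for coding exons and 73.4 for promoters.

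A start site lay inside 206 members (51.1%), and 36 members held 2 or more. In 35 of these the start sites were on both strands (8.68% of members, against 3.47% of all regions), although a wider region holds a start site more easily. In a window of fixed length, 150 bp to each side of the strongest summit, a start site was present at 31.02% of members (26.7% to 35.7%) and at 37.2% of all regions. The 170 members with exactly 1 start site reached a median of 421 bp upstream and 270 bp downstream of it. Divergent pairs included PRR7 with AT5G02820, BIM2 with AT1G68990, MSL3 with AT1G58210 and CSY2 with AT3G58760.

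A transfer RNA gene lay in 14 members (3.47%, against 1.67% of all regions), among them the promoters of GRP7, PRR7, BIM2, DIC2, RPL12-A and RPL12-C. In the fixed window the shares were 2.23% (1.18% to 4.19%) and 1.61%, an interval that holds the overall value. GRP7 encodes an RNA-binding protein of the circadian system, and its region of 867 bp covered 834, 767, 687 and 822 bp. RPL12-A and RPL12-C are near-identical neighbouring genes for a plastid ribosomal protein, so reads from them are uncertain even with single matches kept. One member, next to AT2G07629 on chromosome 2, had 94.9% of its 31-base words in the organelle genomes, and its 633, 632, 640 and 632 covered bp were among the most even of all. That region is uncertain because chromosome 2 holds copies of organelle DNA.

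The 403 members had 401 different nearest genes, of the 14046 that were nearest to any region called in all 4 libraries. Of 74 genes on 8 lists for flower development, the clock, auxin response, SWR1 and polyubiquitin, 3 had a broad region. UBQ10, a polyubiquitin gene expressed in most tissues, had 951 bp (chr4:2717281-2718231) covering 479, 864, 540 and 815 bp. The replicates differed more than the genotypes there. ARP6, a subunit of SWR1, had 802 bp (chr3:14095017-14095818) over its start site, covering 624, 434, 438 and 441 bp, so WT replicate 1 alone was longer. PRR7, a repressor in the circadian clock, had 643 bp covering 489, 549, 582 and 539 bp.

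No gene for floral organ identity, flowering time, meristem and organ boundaries, organ polarity or auxin response factors had a broad region. Of these lists 7 of 9, 7 of 9, 13 of 15, 8 of 11 and 8 of 8 genes had a narrower region called in all 4 libraries. Over all genes, 401 of the 14046 nearest to any region called in all 4 libraries were nearest to a broad one. The lists are too short to set the absence apart from this overall share. On the flowering time list GI came closest with 591 bp, just under the minimum. SWC4, another SWR1 subunit, came closest on its list with 561 bp.

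By the wording of gene descriptions, the nearest genes of broad regions included 8 auxin-responsive genes (1.995% of 401, against 0.676% of the 14046), of which 5 were SAUR-like and 3 encode Aux/IAA repressors. These were IAA5, IAA18 and ATAUX2-11. At ATAUX2-11, among the strongest members with a mean rank percentile of 98.6, the libraries covered 379, 572, 459 and 578 bp. The word bZIP or its full name stood in the descriptions of 4 (0.998%, against 0.263%), among them BZIP25 and BZO2H3. That count leaves out GBF2 and GBF3, bZIP proteins whose descriptions name them G-box binding factors. The word kinase stood in 24 descriptions (5.99%, against 5.18%), one of which is of a kinase inhibitor. Under the wording first searched for the AP2/ERF family there were 0 genes (0%, against 0.306%). Under the RefSeq wording for this family, integrase-type, there were 5 (1.25%, against 0.420%), with DREB26 and CRF10 among them. Neither wording alone need cover the family. The word photosystem stood in the descriptions of 5 (1.25%, against 0.306%): LHCB2.1, LHCB4.1, LHCA2, PSBX and AT1G51400. That count leaves out NPQ4, described as of the chlorophyll A-B binding family. The integrase-type, SAUR-like and photosystem groups were formed after the members were seen. The words ribosomal protein stood in the descriptions of 3 (0.748%, against 1.62%). That count leaves out AT3G22230, whose description is Ribosomal L27e protein family. None of the 401 was described as a WRKY, GATA, TCP or LBD gene, against 0.299%, 0.157%, 0.093% and 0.135% of the 14046. Shares this small leave few or no genes among 401, so these absences do not stand out. These shares are descriptions, without a test.

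Among the strongest members were FIB and AT4G22240, 2 of the 5 plastid fibrillin genes nearest to any region, which encode proteins of plastid lipid bodies. FIB covered 707, 749, 610 and 713 bp of its 806 bp, and AT4G22240 covered 570, 601, 581 and 631 bp of 712 bp, both over the start site and with overlapping genotypes. Width and strength were nearly unrelated among members (Spearman's rho 0.03 over 403 regions), while over all 19546 regions, which share libraries and depth, rho was 0.32. Members were selected on width, and cutting off the narrower regions can itself lower rho, so the 2 values are not comparable.

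The G-box, the site of bZIP and bHLH proteins, was present within 150 bp of the strongest summit at 107 members, 26.6% (22.5% to 31.1%), against 18.2% of all windows of that length. The TCP site was present at 34.7% (30.3% to 39.5%), against 28.1%. The TATA box was less frequent, at 29.3% (25.1% to 33.9%) against 38.1%, and GAGAGA stood at 30.02% against 34.7%. Windows of members had a median GC content of 39.3% against 36.7%, and its part in these shares was not tested. Within promoters the G-box share was 27.5% against 18.9%, and within coding exons 28.6% against 20.8%. For the TCP site these shares were 42.5% against 34.1% and 23.8% against 20.2%. For the TATA box they were 34.7% against 39.0% and 12.7% against 21.1%. Coding exons were more frequent among members than among all regions, and the part of this in the motif shares was not tested. The other motifs lay close to their overall shares: LEAFY core 32.5% and 32.2%, ARF site 19.9% and 18.4%, W-box core 16.1% and 15.1%, telo-box 4.96% and 5.94%, evening element 4.96% and 4.77%, and CArG box 3.97% and 3.33%. A match shows only that these letters are present.

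The comparison of genotypes asked whether broad regions were of the same extent without MBD9. The mean covered length per member was 515.7 and 563.6 bp in WT and 508.3 and 515.2 bp in mbd9-3. WT replicate 1 and mbd9-3 replicate 2 thus differed by under 1 bp, and WT replicate 2 stood apart from the other 3. The genotype means were 540 ± 33.9 and 512 ± 4.86 bp (SD, n = 2 each), a difference of -27.9 bp, mbd9-3 minus WT (exact two-sided permutation test, p = 0.333, the smallest value 2 against 2 libraries allow). As a ratio to each library's mean over all regions called in all 4, the difference was -0.0031 (exact permutation p = 1). Without WT replicate 2, in regions rebuilt from the other 3 libraries, it was -5.04 bp, and without WT replicate 1 it was -56.1 bp. Merged width includes each library's own intervals, and without WT replicate 2 only 274 regions reached the minimum. The part of this selection in the difference was not tested.

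**Figure D5:**
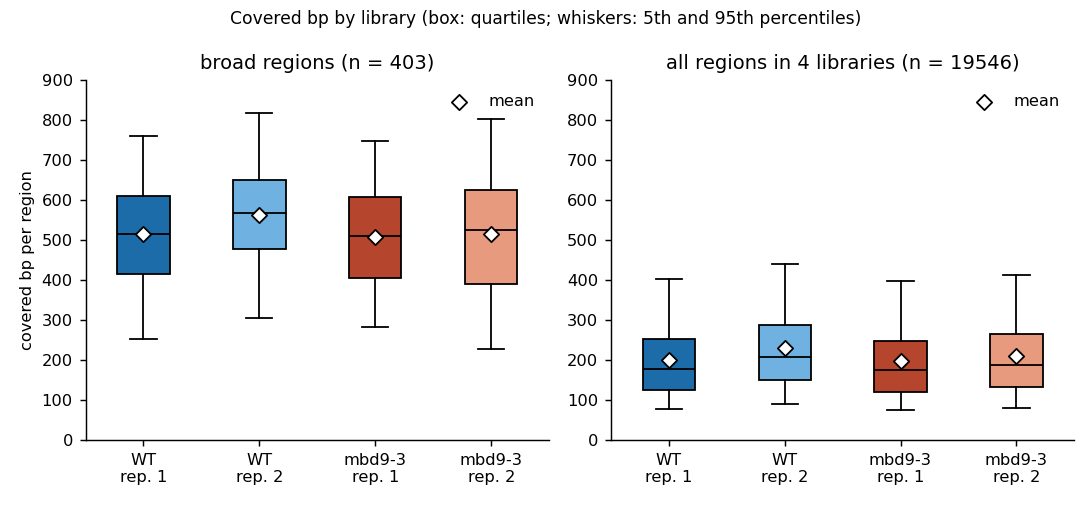
Boxes give the quartiles of covered bp per region in each library, whiskers the 5th and 95th percentiles and diamonds the mean, for the 403 broad regions (left) and all 19546 regions called in all 4 libraries (right). In both panels WT replicate 2 is the highest. The means of the other 3 libraries lie close together on the left, and on the right mbd9-3 replicate 2 lies between WT replicate 2 and the remaining libraries.

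The number of summits also did not separate the genotypes. The means were 2.93 ± 0.24 in WT and 2.87 ± 0.03 in mbd9-3 (± SD over 2 libraries each), with p = 1 in an exact permutation test, and both mbd9-3 libraries lay between the WT libraries. The mean rank percentile was 81.0, 79.3, 82.3 and 76.0 (exact permutation test, p = 1).

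Region by region, limma called no broad region for covered length, with 0 of 403 at an adjusted p under 0.05 and 0% of all 19546 regions. At an unadjusted p under 0.05 there were 19 members (4.71%), against 5.01% of all regions, so the members' share was close to the background. For relative strength, tested on within-list ranks turned into normal scores, limma again called 0 members and 0% of all regions. At an unadjusted p under 0.05 there were 6 members (1.49%), against 5.35%. The median difference in covered length was -0.07 on the log2 scale at members and -0.06 over all regions, and it was below 0 at 62.0% of members and 59.3% of all regions. Both values at members lay close to those over all regions.

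Covered length was greater in both WT than in both mbd9-3 libraries at 79 members (19.6%), against 20.8% of all regions, and smaller in both at 38 members (9.43%), against 10.4%. Both shares were near those of all regions. Among the 79 members greater in both WT libraries, the largest differences in bp were at AT5G10990, whose values are above, SNC1, DREB26 and LPP2, the last level with AT2G10440. SNC1, an immune receptor gene, had a region of 943 bp over its start site covering 652, 925, 521 and 417 bp. DREB26, a transcription factor gene, had an intergenic region of 896 bp covering 757, 784, 492 and 411 bp. LPP2, a lipid phosphate phosphatase gene, had a region of 702 bp at its 3′ end covering 702, 629, 399 and 326 bp. In each of the 3 both WT libraries were longer, and limma's adjusted p was 0.982 in all of them. A region can reach the width minimum through the genotype in which it is longer, so such differences are tied to the selection on width.

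Among the 38 members with greater covered length in both mbd9-3 libraries, the largest differences in bp were at AT4G18280, ERCC1, AT2G19350 and AT1G76360. AT4G18280, a glycine-rich cell wall protein gene, had 74 and 65 bp in WT and 352 and 571 bp in mbd9-3, a log2 difference of 2.69 ± 0.31 (SE; limma, adjusted p = 0.982). Its merged width came mostly from the mbd9-3 intervals, so this difference is tied to the selection on width. It was a weak region, with a mean rank percentile of 31.4 and no base covered in all 4 libraries. The region assigned to ERCC1 (930 bp), which lay wholly within the neighbouring ubiquitin ligase gene ATL6, covered 331, 501, 696 and 660 bp. AT2G19350 covered 402, 456, 827 and 484 bp, and AT1G76360, a kinase gene, 203, 157, 586 and 220 bp. At both of the latter mbd9-3 replicate 1 alone stood far from the rest, and the other mbd9-3 library was close to the higher WT library.

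At promoter members the mean covered length was 507.0, 568.4, 504.9 and 512.5 bp, and at coding members 553.8, 529.9, 549.3 and 500.9 bp. WT replicate 2 was therefore the longest at promoters but not in coding exons, and the genotypes overlapped in both classes (exact permutation tests, p = 0.667 each).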

How the data were processed

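ATAC-seq peak lists of 2 wild-type and 2 mbd9-3 libraries were used, grouped by the genotype and replicate number in their titles. According to the methods section and the submitters' processing notes, adaptors were trimmed with Trim Galore, reads with a single match were kept after mapping to TAIR10 with Bowtie (Bowtie2 in the notes), and organelle reads and duplicates were removed with SAMtools. The ATAC-seq peak caller, its options and any shift for the Tn5 insertion are not given in the sources used here. The deposited lists have the narrowPeak layout, 1 per library, called without a control. The deposited fold enrichment is a ratio, within a library, of summit pileup to background. The deposited −log10 p-values and q-values are likewise per library, and the deposited score repeats the p-value and was not used. The authors' other columns hold interval starts, ends and summit offsets. Rows with no summit (81, 49, 86 and 45) took the interval's middle.

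Intervals of any library that shared at least 1 bp were joined into a region. Covered bp is the union of a library's intervals in a region. Strength was the rank percentile within a list, since each list has its own fold scale. Read totals were not used here; pileup and background were solved from fold and p-value, as a Poisson tail, for over 99.9% of rows of each list. Summits were classed with RefSeq TAIR10.1, whose nuclear chromosomes have the lengths of TAIR10, with the first match taken among promoter (1 kb upstream), then 5′ UTR, then coding exon, then intron, then 3′ UTR, then the 1 kb downstream flank, then non-coding genes and pseudogenes, and otherwise intergenic. Coordinates are 1-based.

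Library values were compared by an exact two-sided permutation test, and regions by limma 3.58.1 in R 4.3.3 (genotype only, all 19546 regions, Benjamini-Hochberg, threshold 0.05), tested on simulated data. The remaining steps were run in Python 3.11.15 with statsmodels 0.14.6, scipy 1.17.1, matplotlib 3.10.9, pandas 2.3.3 and numpy 2.4.6. Members, gene lists and tests were chosen with earlier results of these data known. Named members were the 10 widest (1 of them is not reported here), the next 5 by summits, up to 4 per direction of genotype difference, all on the gene lists, and 5 on each side of the width minimum; others were named after their values were seen. Gene families were read from RefSeq descriptions. Alternatives were other width minimums, q-values, equal list lengths, other merging and class rules, leaving out each library and a replicate block.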

Additional observations from a re-analysis of the deposited data

How the results depend on the processing

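The number of broad regions depends on the width minimum and the calling threshold: 1092 at 500 bp, 70 at 800 bp, and 248 when only rows with a −log10 q of at least 5 were used. Touching intervals (404), regions in at least 2 libraries (411) and equal list lengths (382) changed it little, and leaving out each library gave 274 to 333.

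The difference in mean covered length in bp stayed below 0 in every setting run for it, and leaving out each library gave -56.1 to -5.04 bp. The difference in summits was below 0 in most settings but 0.043 at a minimum of 800 bp, and leaving out each library gave -0.22 to 0.082, with the positive value without WT replicate 2. The mean of the libraries' median spacings was 174 bp, 186 bp at a minimum of 800 bp and 161 bp with the stricter q-value, and 168 to 176 bp with each library left out. The promoter share was 41.4% at 800 bp, 37.5% with promoters of 500 bp and 61.0% with promoters of 2000 bp, and 46.0% to 50.5% with each library left out.

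The median log2 difference in covered length at members was -0.14 to -0.02 with each library left out, and 0.0099 once each library was centred on its median, where its sign turned. limma called 0 regions for covered length and for rank in every setting. In the fit on bp in place of log2 bp, 14.4% of members had an unadjusted p under 0.05, against 5.01% of all regions, the highest share of members in the settings run for covered length. The limma fits on log2 bp over all 403 members gave 4.22% to 5.71%, and the stricter q-value 8.08% of 297. limma shares the spread across all regions, and covered length was larger at members (median 515 bp in WT replicate 1, against 177 bp). The part of this scale in the 14.4% was not tested.

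The labels give both genotypes the replicate numbers 1 and 2 without saying what a number shares. Deviations of same-numbered libraries correlated at r = 0.10 for log2 covered bp and 0.11 for rank scores, over 19546 regions. The replicate block cannot change the difference in covered length in this balanced layout. It stayed at -27.9 bp, from -7.37 bp at number 1 and -48.4 bp at number 2. limma with the replicate block called 0 regions for length (smallest adjusted p 0.827) and 0 for rank (0.682). The median difference at members, -0.07, is likewise fixed by the layout.

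With 2 libraries per genotype no permutation p can fall below 0.333, and limits of the lists are those of the calling threshold.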
